A study of Mus musculus with 6 samples.

Results

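The muscle miRNAs were followed in fresh and vitrified mouse blastocysts as all TaqMan assays for miR-1, miR-133, miR-206, miR-208 and miR-499. Assays were taken by name, on either card and with any letter suffix or species prefix, without passenger strand assays (names ending in #) and without mmu-miR-1-2-AS. Of the 750 miRNA assays on the cards, 8 met this rule, namely mmu-miR-1, rno-miR-1, mmu-miR-133a, mmu-miR-133b, mmu-miR-208, mmu-miR-208b and mmu-miR-499 on card A and hsa-miR-206 on card B. A threshold cycle (Ct) was obtained in at least 1 pool for 5 of the 8.

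These miRNAs are often called myomiRs because striated muscle holds most of them in the adult body. MiR-1 and miR-133a are made from paired genes in skeletal muscle and heart, where miR-1 is known for promoting muscle differentiation and miR-133 for restraining serum response factor and smooth muscle genes. MiR-206 and miR-133b form a skeletal muscle pair, and miR-206 is induced during myogenesis and after nerve injury. MiR-208a, miR-208b and miR-499 lie within myosin heavy chain genes and accompany their expression in heart and slow muscle. A miRNA recognises its targets mainly through its seed, the bases 2 to 8 of the mature strand.

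The mature sequences below are shown so that the seeds of 5 of the 8 assays can be compared. They were taken from RefSeq (GRCm38.p6) by name, with the seed in capitals and the rest in lower case. The RefSeq set used held no entry for the mature strands of miR-1 and miR-133a. The seeds of mmu-miR-1, rno-miR-1 and mmu-miR-133a were therefore not compared with these. The deposited values name no genome build and hold no target sequences, and mouse miR-206 stands for the assay named for human.
mmu-miR-206-3p: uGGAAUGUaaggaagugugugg
mmu-miR-133b-3p: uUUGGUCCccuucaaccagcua
mmu-miR-208a-3p: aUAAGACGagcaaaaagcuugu
mmu-miR-208b-3p: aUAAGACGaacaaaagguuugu
mmu-miR-499-5p: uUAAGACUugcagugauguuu

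The mature miR-208a and miR-208b strands were identical at 19 of 22 positions and at all 7 positions of the seed. MiR-499-5p matched miR-208a-3p at 6 of the 7 seed positions and at 12 of the 21 positions compared. MiR-206-3p and miR-133b-3p come from neighbouring genes but matched at only 1 of 7 seed positions.

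The strands lie at chr1:20679055-20679076 (+) for miR-206-3p and chr1:20682834-20682855 (+) for miR-133b-3p. They lie at chr14:54949072-54949093 (-) for miR-208a-3p, chr14:54975710-54975731 (-) for miR-208b-3p and chr2:155622893-155622913 (+) for miR-499-5p, all in GRCm38.p6. In that annotation Mir206 and Mir133b are the nearest miRNA genes to each other and both lie within the span of the noncoding gene Lincmd1. Mir208a lies within Myh6, Mir208b within Myh7 and Mir499 within Myh7b, all genes of myosin heavy chains. Mir1a-1 lies within the noncoding gene Mir1a-1hg, and its nearest miRNA gene is Mir133a-2.

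All blastocysts came from superovulated Kunming white mice of 5 weeks, and each pool held 300 blastocysts. The 3 vitrified pools (V1, V2 and V3) had been held for 30 seconds in a pretreatment solution of ethylene glycol and dimethyl sulfoxide and for 25 seconds in EDFS30 in an open-pulled straw. They were then plunged into liquid nitrogen and thawed in sucrose for 5 minutes. The 3 fresh pools (F1, F2 and F3) were not vitrified. A blastocyst pool mixes inner cell mass and trophectoderm, and fewer cells of a type cannot be told apart from less RNA per cell. The sources do not say whether the pools of a group came from separate collections, so each p-value measures only the spread between these pools.

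Each pool gave a single Ct per assay, and a later Ct means less template. ΔCt is the Ct minus the mean of the 4 U6 snRNA wells of the same card and pool, so that a lower ΔCt is a higher level on a log2 scale. A well with no Ct under 40 cycles was undetermined and was left out. Among all 750 miRNA assays, 140 to 409 were determined per pool, with V1 (218) and F1 (140) well below the others (382 to 409). These 2 pools stand apart in most assays, and results are given with and without them. The SD among the 4 U6 wells of a card and pool was 0.09 to 0.55 cycles.

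The muscle assays fell into 3 patterns of detection. The first 2, mmu-miR-133a and hsa-miR-206, were determined in all 6 pools. Another 3, mmu-miR-1, rno-miR-1 and mmu-miR-133b, were determined in V2, V3, F2 and F3 and undetermined in both V1 and F1. The last 3, mmu-miR-208, mmu-miR-208b and mmu-miR-499, were undetermined in every pool. Among the 750 miRNA assays these patterns held for 16.3%, 16.8% and 34.7%. In total 24 of the 48 muscle wells were determined, with 5 assays in each of V2, V3, F2 and F3 and 2 in each of V1 and F1. The mean number per pool was thus 4.0 ± 1.7 (SD, n = 3) in each group (2-sided exact permutation test, p = 1.0, where 0.1 is the smallest possible).

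**Figure D1:**
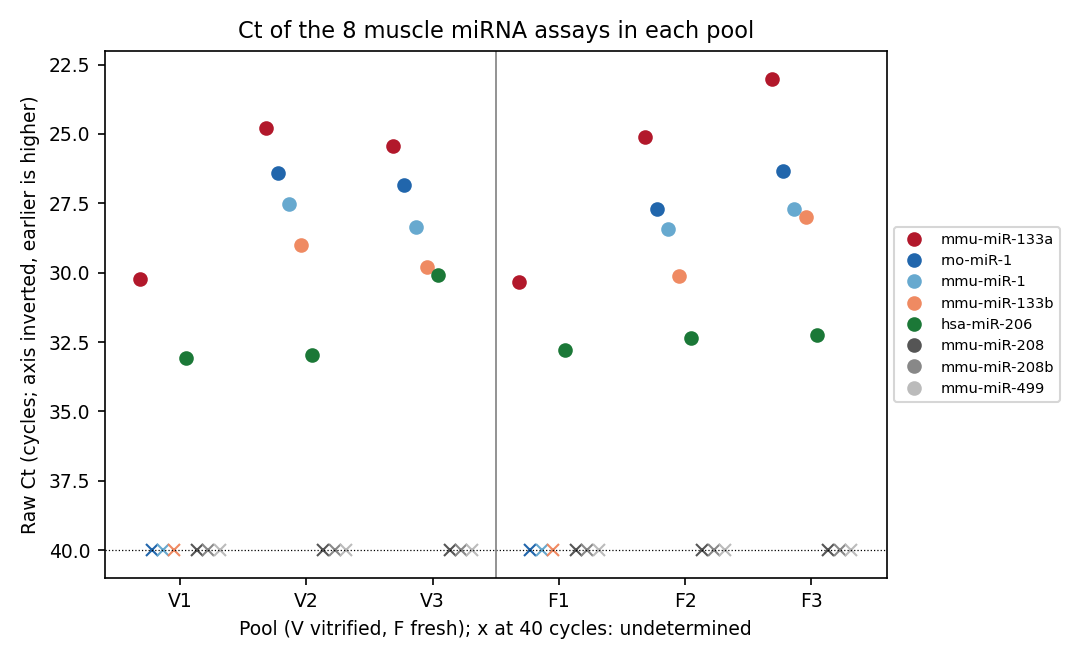
Raw Ct in cycles (vertical axis, inverted) of the 8 muscle miRNA assays in 3 vitrified (V) and 3 fresh (F) pools; each point is 1 well, and crosses at 40 cycles mark undetermined wells. mmu-miR-133a is the earliest assay in every pool, from 23.01 in F3 to 30.34 in F1, and the 3 cardiac assays have no Ct anywhere.

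The earliest muscle assay was mmu-miR-133a, the form of miR-133 shared by heart and skeletal muscle. The vitrified pools V1, V2 and V3 came up at raw Ct values of 30.23, 24.80 and 25.45, and the fresh pools F1, F2 and F3 at 30.34, 25.12 and 23.01. Its ΔCt was 12.41, 7.70 and 8.48 in V1, V2 and V3 and 13.27, 8.53 and 6.05 in F1, F2 and F3. The highest level was thus in F3, V1 and F1 were the lowest, and the groups overlapped. Between 72.0% and 85.6% of the miRNA assays determined on card A came up later than mmu-miR-133a in V2, V3, F2 and F3. The vitrified mean was a ΔCt of 9.53 ± 2.52 (SD, n = 3) and the fresh mean 9.28 ± 3.66 (SD, n = 3). The log2 fold change, vitrified over fresh, was −0.25 (standard error 2.18, 95% interval −5.52 to 5.03, adjusted p = 0.998 from limma). Without V1 and F1 it was −0.80 (95% interval −3.34 to 1.74). The sign turned when single pools were left out, with 1.19 without V1, 0.13 without F2 and 1.37 without F3. Each of these fits keeps a pool number in only a single group, and without V1 the late F1 stays among the fresh pools.

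The 2 assays for miR-1 gave similar patterns. The raw Ct of rno-miR-1 was 26.39 in V2, 26.84 in V3, 27.71 in F2 and 26.34 in F3. That of mmu-miR-1 was 27.53 in V2, 28.34 in V3, 28.42 in F2 and 27.72 in F3. In both assays the latest of the 4 pools was F2, and the vitrified and fresh values overlapped. The mmu-miR-1 assay lay near the middle of card A, with 45.2% to 48.0% of the determined assays later than it. The vitrified mean ΔCt was 10.90 ± 0.67 (SD, n = 2) and the fresh mean 11.30 ± 0.75 (SD, n = 2), a log2 fold change of 0.40 (standard error 1.22, 95% interval −2.89 to 3.68). For rno-miR-1 the vitrified mean was 9.58 ± 0.42 (SD, n = 2) and the fresh mean 10.25 ± 1.23 (SD, n = 2), and the log2 fold change was 0.68 (standard error 1.28, 95% interval −2.78 to 4.13). Both had an adjusted p of 0.998 from limma.

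The assay of mmu-miR-133b, the skeletal muscle form of miR-133, came up later than that of mmu-miR-133a. Whether it also detected the template of mmu-miR-133a was not tested. The raw Ct of mmu-miR-133b was 29.00 in V2, 29.80 in V3, 30.12 in F2 and 28.00 in F3. As for mmu-miR-133a, the highest level was in F3. The vitrified mean ΔCt was 12.37 ± 0.66 (SD, n = 2) and the fresh mean 12.29 ± 1.76 (SD, n = 2), and both vitrified values lay between the 2 fresh values. The log2 fold change was −0.07 (standard error 1.44, 95% interval −3.96 to 3.81, adjusted p = 0.998 from limma).

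The assay of hsa-miR-206, the skeletal muscle miRNA with the seed printed above, came up last of the determined muscle assays in each pool. Of the miRNA assays determined on card B, 52.0% came up later than it in V3. In the other pools this share was 17.3% (F1) to 37.1% (F2). The vitrified pools gave raw Ct values of 33.07 (V1), 32.95 (V2) and 30.08 (V3), and the fresh pools 32.78 (F1), 32.35 (F2) and 32.23 (F3). The vitrified pool V3 had the highest level, and the other 5 pools lay within 1 cycle of each other. The vitrified mean ΔCt was 14.73 ± 1.02 (SD, n = 3) and the fresh mean 15.46 ± 0.42 (SD, n = 3). The log2 fold change was 0.72 (standard error 0.91, 95% interval −1.47 to 2.92, adjusted p = 0.998 from limma), and it was 0.14 without V3. The single-assay difference was not distinguishable from the spread between pools either (2-sided exact permutation test, p = 0.4, where 0.1 is the smallest possible).

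No well of mmu-miR-208, mmu-miR-208b or mmu-miR-499 crossed the threshold, which is 0 of 18 wells. These are the 3 assays whose genes lie in myosin heavy chain genes and whose mature strands share the first 6 seed positions. A well without a Ct sets at most a bound. On card A the limit of 40 cycles corresponded to a ΔCt of 22.18 in V1 to 23.41 in F2. In F3 the limit lay 16.99 cycles after mmu-miR-133a, and in F1 it lay 9.66 cycles after it. No fold change can be given for these assays. Both passenger strand assays of the group, mmu-miR-133a# and rno-miR-1#, were also undetermined in all 6 pools. The assay mmu-miR-1-2-AS, named for a transcript opposite to a miR-1 gene, was determined at 33.44 in V3, 37.81 in F1 and 37.32 in F2 only.

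The order of the 5 determined assays by ΔCt was the same in V2, V3, F2 and F3. It ran from mmu-miR-133a through rno-miR-1, mmu-miR-1 and mmu-miR-133b to hsa-miR-206. A Ct depends on the efficiency of its assay as well as on the amount of template, so the order is that of the assays and need not be that of the miRNAs. The gap between rno-miR-1 and mmu-miR-1, from raw Ct on the same card, was 1.14 in V2, 1.50 in V3, 0.71 in F2 and 1.38 in F3, with a mean of 1.18 ± 0.35 cycles (SD, n = 4). Between mmu-miR-133a and mmu-miR-133b it was 4.20, 4.35, 5.01 and 5.00 cycles in the same pools, a mean of 4.64 ± 0.42 (SD, n = 4). These 2 gaps varied least of all 10 pairs. Whether the assays of these pairs detect each other's template was not tested.

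The neighbours in the order that lay closest against their spread were mmu-miR-133b and hsa-miR-206, with a ΔCt gap of 2.49 ± 1.47 cycles (SD, n = 4) and of only 0.73 in V3. Between mmu-miR-1 and mmu-miR-133b the gap was 1.23 ± 0.64 cycles (SD, n = 4), with 0.28 in F3. Between mmu-miR-133a and rno-miR-1 it was 2.23 ± 0.91 cycles (SD, n = 4). Each gap had the same sign in 4 of 4 pools, and each gave p = 0.125 in a 2-sided exact permutation test of signs, the smallest that 4 pools allow. Only mmu-miR-133a and hsa-miR-206 could be compared in 6 pools, where the gap was 2.63 to 9.01 cycles of ΔCt (exact permutation p = 0.0312, adjusted over the 10 pairs 0.125).

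The study asked whether vitrification changes the miRNAs of blastocysts. In the limma comparison, 0 of the 5 muscle assays tested had an adjusted p under 0.05, and 0 had an unadjusted p under 0.05. Over all 335 miRNA assays tested the background was 0 assays, or 0%, by the adjusted and 0.299% by the unadjusted p. The log2 fold change was above 0 for mmu-miR-1, rno-miR-1 and hsa-miR-206 and below 0 for mmu-miR-133a and mmu-miR-133b. The median was 0.40 over the 5 muscle assays and −0.05 over all 335. In V2 and V3 against F2 and F3 alone, again 0 of 5 had an unadjusted p under 0.05, where the background was 4.91% of 326 assays. The ΔCt of V2 and V3 overlapped that of F2 and F3 for all 5 assays, whereas the groups did not overlap for 28.8% of those 326. In all 6 pools the groups overlapped for mmu-miR-133a and hsa-miR-206, and 1.64% of the 122 assays determined in every pool did not overlap. In the fit of all 6 pools each of the 5 intervals reached beyond 1 cycle in both directions. A change of 1 cycle either way thus lay within the error of this fit. For mmu-miR-1, rno-miR-1 and mmu-miR-133b the values came from V2, V3, F2 and F3 only. Their intervals were wider in this fit than from pools 2 and 3 alone, because limma shares the spread over all assays.

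**Figure D2:**
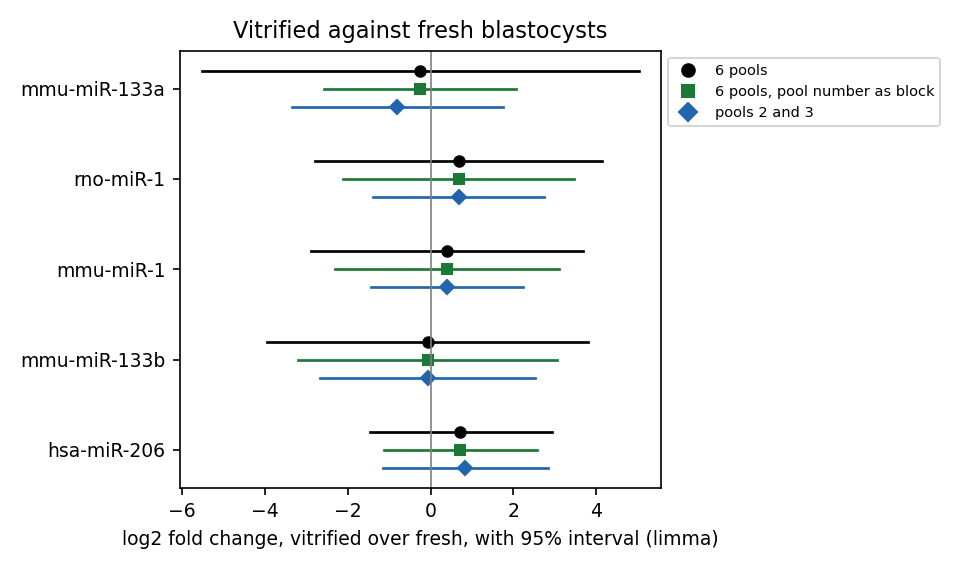
Log2 fold change of vitrified over fresh blastocysts (horizontal axis) with its 95% interval from limma for the 5 determined muscle miRNA assays. The fits are of all 6 pools, of all 6 with the pool number as a block, and of pools 2 and 3. In each fit mmu-miR-1, rno-miR-1 and mmu-miR-133b had values only in V2, V3, F2 and F3. Every interval spans 0, and the widest is that of mmu-miR-133a over 6 pools, from −5.52 to 5.03.

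V1 and F1 were late for the muscle assays of card A. Set against the average of the 2 other pools of its group, mmu-miR-133a was delayed by 5.10 cycles in V1 and by 6.28 cycles in F1. The median over the card A assays determined in the 3 pools of the group was 5.65 cycles (130 assays) and 6.16 cycles (85 assays). The delay of mmu-miR-133a was thus close to the middle of these assays, larger than in 42.3% and 50.6% of them. Assays with no Ct in V1 or F1 have no measured delay and were left out. The place of mmu-miR-133a among all assays of its card is therefore not known. For hsa-miR-206 on card B the delay was 1.56 cycles in V1 and 0.49 in F1, against medians of 2.75 cycles (66 assays) and 1.54 cycles (48 assays).

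The 40-cycle limit lay 13.39 cycles (V1) and 12.97 cycles (F1) after the mean Ct of rno-miR-1 in the other pools of the group. For mmu-miR-1 these distances were 12.06 and 11.93 cycles, and for mmu-miR-133b 10.60 and 10.94. They are lower bounds of a delay only if a well with no Ct is taken as a late one. The largest delay measured on card A was 11.17 cycles in V1 and 13.07 in F1. The assays of like abundance on card A give the scale. Of the 38 other assays whose mean Ct in V2 and V3 lay within 1 cycle of mmu-miR-1, 24 (63.2%) were determined in V1. In the fresh pools this held for 5 of 40 (12.5%). For rno-miR-1 it was 28 of 39 (71.8%) in V1 and 14 of 35 (40.0%) in F1, and for mmu-miR-133b 13 of 24 (54.2%) and 2 of 28 (7.1%).

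**Figure D3:**
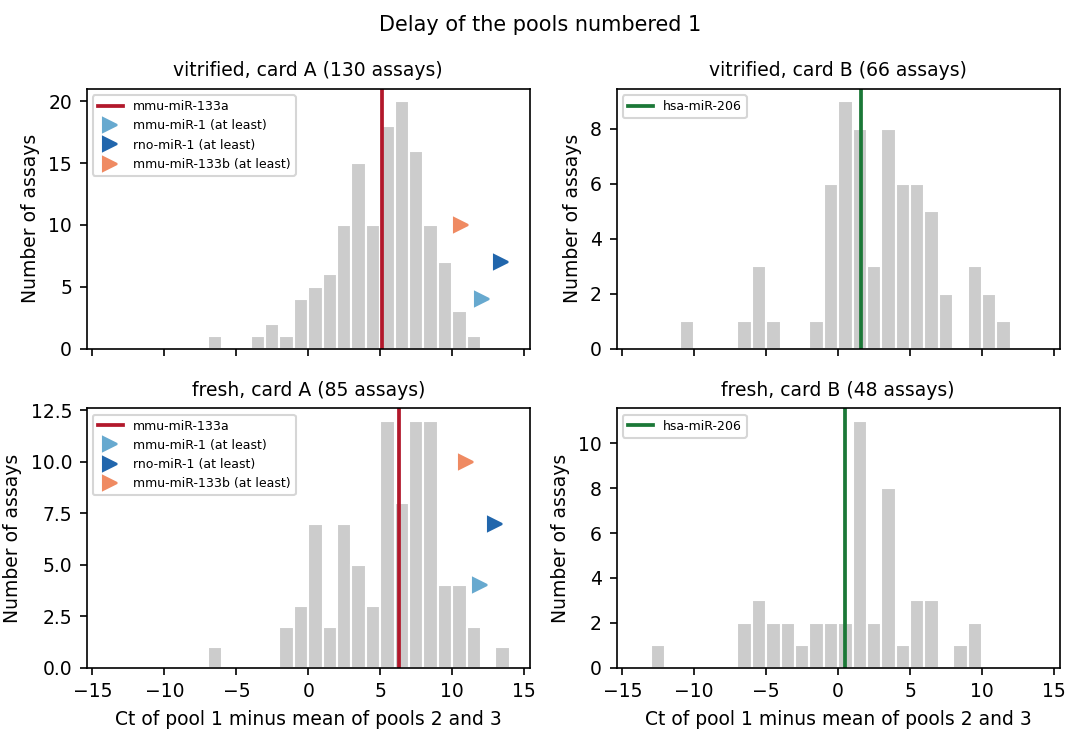
Delay of the pools numbered 1, as the raw Ct of V1 or F1 minus the mean of the other 2 pools of its group (horizontal axis, cycles), for the assays determined in all 3 pools (grey bars, number of assays). Lines mark mmu-miR-133a (5.10 and 6.28 cycles) and hsa-miR-206 (1.56 and 0.49), and triangles, at arbitrary heights, mark the lowest delay possible for the 3 assays that had no Ct in pool 1.

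The miRNAs with the most similar pattern were sought among the assays determined in exactly the same pools, as the smallest root-mean-square difference between −ΔCt profiles centred on their own means. For mmu-miR-133a, over 6 pools and 121 assays, these were mmu-miR-139-5p (0.33 cycles), mmu-miR-135b (0.39) and mmu-miR-218 (0.45), where the median assay differed by 1.54. For mmu-miR-1, over 4 pools and 125 assays, they were mmu-miR-127 (0.13 cycles), mmu-miR-199b (0.17) and hsa-miR-106b# (0.21), with a median of 0.80. For rno-miR-1 they were mmu-miR-337 (0.11), mmu-miR-23b (0.18) and again mmu-miR-127 (0.20), with a median of 0.95.

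The closest profiles to mmu-miR-133b were those of mmu-miR-455 (0.13 cycles), mmu-miR-126-5p (0.40) and mmu-miR-340-3p (0.42), with a median of 1.06. Among muscle assays determined in the same pools, none was the nearest to another. The profile of mmu-miR-133a, which was determined in more pools, was not compared with those of mmu-miR-133b, mmu-miR-1 and rno-miR-1. In the list of rno-miR-1, mmu-miR-1 ranked 6 and mmu-miR-133b 20 of the 125, with differences of 0.30 and 0.48 cycles. For hsa-miR-206 the closest were mmu-miR-1930 (0.66), mmu-miR-155 (0.72) and mmu-miR-680 (0.80), with a median of 2.14. The difference between hsa-miR-206 and mmu-miR-133a was 2.34 cycles, which placed each below the middle of the other's list of 121.

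The labelled cell type was checked with the miR-290 to miR-295 cluster, which is abundant in early mouse embryos. Of the 14 assays listed for it by name, 10 were determined in at least 1 pool. The list left out mmu-miR-291-3p, whose name has no letter after the number. In V2, V3, F2 and F3 together 32 of 56 wells were determined, and in V1 and F1 0 of 28, so that these markers were undetermined in the 2 pools that also lacked miR-1 and miR-133b. By the mean Ct over determined wells, which come from different pools for different assays, the lowest was mmu-miR-292-3p on card A, with 24.12 over 4 wells, and the highest mmu-miR-290-3p, with 33.75 in its single well in F2.

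Assays listed as markers of other cell types were also determined. Whether such cells were present in the pools was not tested. MiR-143 and miR-145, which are abundant in smooth muscle, gave a Ct in 12 of 12 wells of V2, V3, F2 and F3 and in 4 of 6 wells of V1 and F1. For mmu-miR-145 the raw Ct was 28.55, 20.90 and 20.97 in V1, V2 and V3 and 29.42, 21.30 and 18.52 in F1, F2 and F3. In each pool it was earlier than mmu-miR-133a. The 3 smooth muscle assays had mean Ct values from 23.28 (mmu-miR-145) to 28.00 (hsa-miR-143) over their determined wells. Endothelial mmu-miR-126-3p and mmu-miR-126-5p had 23.63 and 23.74, and red blood cell mmu-miR-451 and hsa-miR-144 had 24.81 and 34.47. These means come from different pools for different assays and do not rank them. In V2, V3, F2 and F3 mmu-miR-126-3p was at 20.04 to 22.42 and mmu-miR-126-5p at 22.55 to 24.92. The mean of mmu-miR-451 includes a late well of 33.09 in V1, and its other wells lay at 21.91 to 23.54. Among the leukocyte assays hsa-miR-223 had the lowest mean, 22.78, and mmu-miR-142-5p the highest, 33.21. The neuronal assays mmu-miR-124 and mmu-miR-9 had 27.19 and 32.44, liver mmu-miR-122 had 32.86 and islet mmu-miR-375 had 27.44.

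The summed level of the muscle assays, taken over their determined wells, corresponded to a ΔCt of 12.24, 7.07 and 7.81 in V1, V2 and V3 and of 13.05, 8.14 and 5.83 in F1, F2 and F3. For the smooth muscle assays it was 10.59, 3.48 and 3.79 in the vitrified and 11.95, 4.44 and 1.35 in the fresh pools. For the listed miR-290 to miR-295 assays it was 7.51 in V2, 5.32 in V3, 5.58 in F2 and 7.23 in F3. In F3 the muscle and smooth muscle sums were at their highest. On this U6 scale, in V3 and F2 the embryonic sum was higher, and the muscle sum lower, than in the other of the pools 2 and 3 of the same group. The part of other cells in the muscle values was not tested.

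The difference between pools 2 and 3 was followed assay by assay within each group, a comparison made after the values were seen. In ΔCt, V3 was later than V2 by 0.95 cycles for mmu-miR-1, 0.59 for rno-miR-1, 0.79 for mmu-miR-133a and 0.93 for mmu-miR-133b. F3 was earlier than F2 for the same 4 assays, with differences of −1.07, −1.74, −2.48 and −2.49 cycles. With U6 as the reference this direction held for 4 of the 5 muscle assays and for 57.4% of the 326 assays determined in these pools. All 7 listed miR-290 to miR-295 assays determined there ran the opposite way, as did 10.1% of the 326. The assay of hsa-miR-206 followed neither, with −1.67 cycles between V3 and V2 and −0.35 between F3 and F2.

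These differences depended on the reference. With the global mean (over the 122 assays with a Ct in 6 of 6 pools) subtracted instead of U6, V3 minus V2 was 0.27 for mmu-miR-1, −0.09 for rno-miR-1, 0.11 for mmu-miR-133a and 0.25 for mmu-miR-133b. F3 minus F2 was −0.18, −0.85, −1.58 and −1.60 for the same assays, and 0.79 for hsa-miR-206. The direction then held for 3 of the 5 muscle assays and 21.2% of the 326, and the opposite one for 35.3% of the 326. With no reference it held for 4 of 5 and 34.0%, and the opposite one for 21.2%. The 7 embryonic assays ran the opposite way under each of these references. Whether the muscle assays differ from the others in this was not tested.

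**Figure D4:**
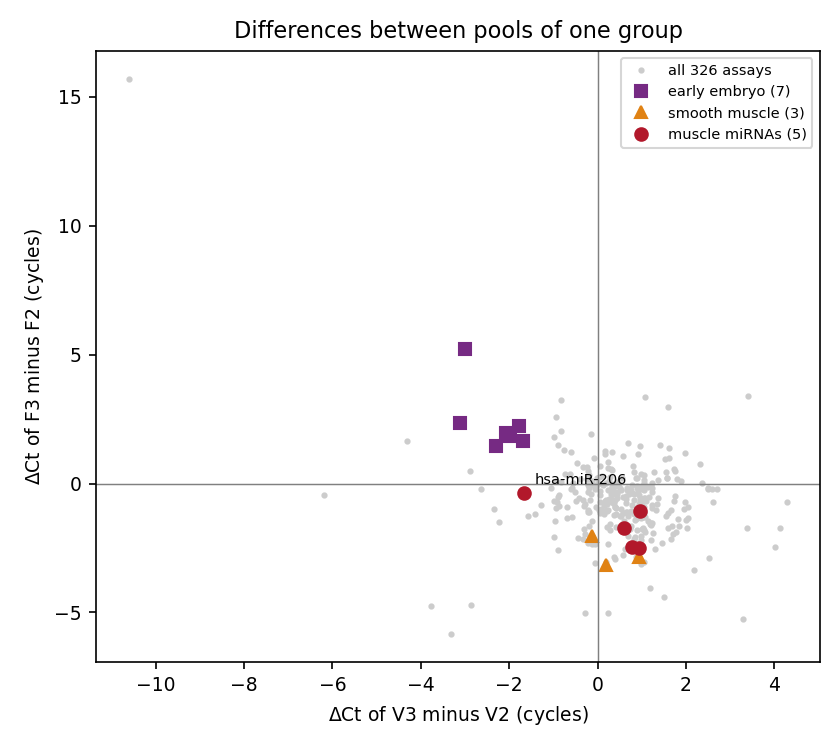
Difference in ΔCt (U6 as the reference) between V3 and V2 (horizontal axis, cycles) and between F3 and F2 (vertical axis, cycles) for the 326 miRNA assays determined in these 4 pools; each point is 1 assay. The other 4 muscle assays lie at the lower right with most assays, hsa-miR-206 lies at −1.67 and −0.35, and the 7 early embryo assays lie at the upper left.

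Broadly expressed miRNAs that also act in muscle development were compared as a further list, namely miR-486, miR-23a, miR-24, miR-26a, miR-27b, miR-29, miR-181, miR-214, miR-221 and miR-222. Of its 13 assays, 12 were determined in each of V2, V3, F2 and F3, 10 in V1 and 6 in F1, and mmu-miR-23a gave no Ct. The lowest mean Ct over determined wells was that of mmu-miR-24, 21.84, and the highest that of mmu-miR-181a, 29.27, which includes a late well of 35.89 in V1. In V2, V3, F2 and F3 the Ct of mmu-miR-181a was 27.19 to 27.86, and mmu-miR-29b, which had no Ct in V1 or F1, was later there, at 28.17 to 28.88. In the limma comparison 0 of the 12 tested had an adjusted and 0 an unadjusted p under 0.05, with 7 log2 fold changes above and 5 below 0 and a median of 0.14. Without V1 and F1 the median was −0.29, and again 0 of the 12 had an unadjusted p under 0.05. None of the smooth muscle assays, tested in the same fit, had an adjusted p under 0.05. Their median log2 fold change was 0.03 over 3 assays, and −0.72 (range −0.76 to 0.35) without V1 and F1.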

How the data were processed

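For each pool, 30 ng of total RNA was reverse transcribed, pre-amplified and read on both TaqMan rodent miRNA cards. As deposited, the values are unnormalized raw Ct of 768 wells, in which the authors marked undetermined wells. Their second table holds signed fold changes between the groups and was not used.

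Samples were grouped by the labels. Wells undetermined or at 40 cycles or later were excluded, as in the methods of the study, and the mean U6 Ct of the card and pool was subtracted. The 335 miRNA assays with at least 2 determined wells in each group entered a 2-sided limma fit (lmFit, eBayes; limma 3.58.1, R 4.3.3) with Benjamini-Hochberg adjustment over all of them. The step was tested on simulated data with a spread set for the pools numbered 2 and 3. The simulated data held no delay of V1 and F1, so this test does not cover it. Single assays were compared by 2-sided exact permutation. Other steps used Python 3.11.15 (numpy 2.4.6, pandas 2.3.3, matplotlib 3.10.9). With 3 pools per group the number of pools limits the precision, and no Ct was identical in 2 pools of a group.

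Assays, lists, tests and alternatives were chosen with earlier results of these data known. The genes named were all muscle assays, other assays of their hairpins, the 3 most similar profiles and the assay with the lowest and with the highest mean Ct of each list. Beyond this rule, mmu-miR-23a and mmu-miR-29b were named after their values were seen. Pools of the same number deviated together from their group means over 122 assays (correlations 0.80, 0.78 and 0.67 for the numbers 1, 2 and 3, which sum to 0 within a group), and the numbers come from the sample labels. Sequences and neighbouring genes come from RefSeq.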

Additional observations from a re-analysis of the deposited data

How the results depend on the processing

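Across 17 alternatives, 0 of all assays passed an adjusted p of 0.05 in limma. The number that passed an unadjusted p of 0.05 was between 0 and 16, against 1 in the limma fit of all 6 pools given above. It was 9 in the unmoderated test, 12 without V1 and 16 in the pools numbered 2 and 3. With the pool number as a replicate block, these counts were 0 and 4, and the block changed no call of a muscle assay. Their log2 fold changes stayed the same (mmu-miR-1 0.40, rno-miR-1 0.68, mmu-miR-133a −0.25, mmu-miR-133b −0.07 and hsa-miR-206 0.72). The block could not move them, because each of the 5 assays was determined in the same pool numbers of both groups. It did lower their standard errors, that of mmu-miR-133a from 2.18 to 0.95. The interval of mmu-miR-133a was −2.57 to 2.07 with the block and −5.52 to 5.03 without it. The sign of mmu-miR-1 turned with the endogenous controls as the reference (−0.02). That of mmu-miR-133b turned with the global mean as the reference (0.26) and with undetermined wells set to 40 or all late wells set to 35 (0.20 in each). Leaving out single pools gave log2 fold changes of −0.14 to 0.93 for mmu-miR-1, −0.19 to 1.55 for rno-miR-1, −2.24 to 1.37 for mmu-miR-133a, −1.32 to 1.17 for mmu-miR-133b and 0.14 to 1.06 for hsa-miR-206. The signs turned without V2 for mmu-miR-1 (−0.08), without F2 for mmu-miR-1 (−0.14), rno-miR-1 (−0.19) and mmu-miR-133a (0.13), without V1 or F3 for mmu-miR-133a (1.19 and 1.37), and without V3 or F3 for mmu-miR-133b (0.39 and 1.17). A lone pool left in a group was assumed to vary like the others. Over all alternatives the adjusted p of the muscle assays lay between 0.846 and 0.999, and hsa-miR-206 kept its direction in 17 of 17. The difference in the number of determined muscle assays between the groups was −1.0 to 1.0 with each pool left out and 0 with a limit of 35 cycles or in the pools numbered 2 and 3. The order of the 5 determined assays was the same from raw Ct. The cause of these changes was not tested.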
